A study of Mus musculus with 8 samples.

Results

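The 4 Shc genes and 6 genes of adaptor and docking proteins that work beside them at growth factor receptors were examined in tumours grown from 4T1, a line of mouse mammary carcinoma cells. The genes are Shc1, Shc2, Shc3, Shc4, Grb2, Gab1, Gab2, Sos1, Frs2 and Irs1. Their probes are those whose RefSeq accession in the array files belongs to 1 of these symbols, and every such probe was kept, which gave 14 of the 55681 non-control probes. Of the 10 genes, 4 (Shc2, Shc4, Grb2 and Irs1) had 2 probes and the others 1. The group was chosen by a measured value, the large difference of Shc4 between the tumours compared below, so all differences between the groups in these 10 genes are given as descriptions, with no test.

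In the control tumours (n = 4 arrays) the 4T1 cells had been exposed for 24 h to an empty adenovirus at a multiplicity of infection of 50, and in the other tumours (n = 4 arrays) to an adenovirus carrying PRH. PRH is the homeodomain transcription factor encoded by Hhex. Cells of both groups were injected into fat pad number 3 of female BALB/C mice aged 6 to 8 weeks, and tumours were collected on day 22. The virus was thus given to the cells before they were injected, and the promoter that drives PRH is not given in the sources used here. The labels name whole tumours in one place and endothelial isolates in another as the source of the RNA. Each array has a mouse number, 1, 2, 3 or 5, and each number occurs once in both groups, with nothing that says whether the same number is the same animal.

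Shc proteins carry a phosphotyrosine-binding domain at one end and an SH2 domain at the other, and activated receptors phosphorylate tyrosines in the stretch between them. The SH2 domain of Grb2 binds these phosphotyrosines, and its SH3 domains hold Sos1, the exchange factor that loads Ras with GTP. Shc1 is made in most tissues and is needed by several oncogenes in mouse mammary tumours, Shc2 and Shc3 are known mainly from neurons, and Shc4 (also called RaLP or ShcD) was described in melanoma, brain and muscle. Gab1 and Gab2 are scaffolds that Grb2 brings to receptors, Frs2 is the docking protein of fibroblast growth factor and nerve growth factor receptors, and Irs1 is that of the insulin and IGF1 receptors.

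The start regions of Shc4, whose difference led to the choice of the group, and of Grb2, the adaptor that binds Shc proteins, are printed because PRH is a homeodomain protein. Each is the RefSeq window (build GRCm38.p6) of 300 bases around an annotated start, read 5′ to 3′ on the gene's strand. Capitals mark the homeodomain core TAAT on either strand (ATTA on the strand shown). The Shc4 window lies at chr2:125724099-125724398 on the minus strand, and the Grb2 window at chr11:115699879-115700178 on the minus strand.
Shc4: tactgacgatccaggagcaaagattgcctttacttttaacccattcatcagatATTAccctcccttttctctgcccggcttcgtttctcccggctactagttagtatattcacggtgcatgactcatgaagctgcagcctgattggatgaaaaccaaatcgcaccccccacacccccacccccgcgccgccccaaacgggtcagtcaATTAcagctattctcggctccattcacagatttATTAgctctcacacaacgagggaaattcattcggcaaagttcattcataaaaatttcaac
Grb2: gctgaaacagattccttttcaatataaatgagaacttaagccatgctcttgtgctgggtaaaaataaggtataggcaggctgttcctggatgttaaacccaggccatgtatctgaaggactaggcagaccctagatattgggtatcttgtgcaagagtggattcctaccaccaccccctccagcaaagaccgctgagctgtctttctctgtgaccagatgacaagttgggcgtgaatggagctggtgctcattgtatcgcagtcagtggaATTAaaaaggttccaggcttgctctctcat

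The Shc4 window held 3 such matches, with first bases at -197, -43 and -10 from the start, and this Grb2 window 1, at 21 after it. The other Grb2 window and 7 of the 8 windows of the other genes listed held 0, and 1 of the Shc1 windows held 1. The Grb2 window printed is thus the one that holds a match. Of all 32851 windows 58.03% held at least 1 match, so a match is common, and it is a description of the letters only. The share of windows with 3 or more was not computed, so the Shc4 count has no background beside it. The longer string ATTAA, which overlaps the core, was in 27.09% of all windows, 0 times in the Shc4 window and 1 time in this Grb2 window.

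All 8 arrays were on 1 slide in 1 scan, with control arrays in slide column 2 and PRH arrays in slide column 1, so for every result the effects of column and of group cannot be told apart. The signal's 75th percentile was 1094 ± 131 on control and 722.4 ± 41.2 on PRH-labelled arrays (mean ± SD, n = 4 each, exact two-sided permutation p = 0.0286, the smallest that 70 arrangements allow), and values below are log2 of the signal relative to that percentile of the same array. No spot was saturated. More of the array passed as well above background in the PRH-labelled group, 73.18 ± 0.77% against 66.7 ± 2.30% in control. The groups differed here too (SD, n = 4 each, exact two-sided permutation p = 0.0286). Detection counts of single probes are to be read beside this difference. The array number limits the precision, and the p-values measure the spread between these arrays, since nothing says how the tumours were sampled. Hhex itself, the gene that the virus should deliver, stood at -0.54, -0.33, -0.69 and -0.78 on control arrays 1, 2, 3 and 5 and at -1.71, -1.46, -1.79 and -1.72 on the PRH arrays. The groups did not overlap, and the difference was -1.09 (SE 0.148, limma adjusted p = 0.00674), opposite to what the label says was delivered. Whether the probe can read the delivered sequence is not given in the sources used here, so the arrays are called PRH-labelled and every direction is that of the label.

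Shc4 was the member with the largest difference. Its brighter probe (A_55_P1968763) read 0.10, -0.24, 0.43 and 0.43 on the control arrays and 2.50, 2.49, 3.26 and 2.24 on the PRH-labelled arrays, in the order of mouse numbers 1, 2, 3 and 5. The lowest PRH-labelled array was far above the highest control array, and array 3 was the highest of its group. The group means were 0.18 ± 0.32 and 2.62 ± 0.44 (SD, n = 4 each), a difference of 2.44 on the log2 scale (SE 0.260), or 5.43-fold. Before any scaling the processed signal was 1246 ± 193 in control and 4588 ± 1407 in PRH-labelled tumours, so the higher reading was already in the deposited signals.

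The dimmer Shc4 probe (A_51_P356602) was higher by less. It read -3.26, -4.20, -3.93 and -4.25 on the control arrays and -2.57, -2.99, -2.75 and -2.68 on the PRH-labelled arrays. The groups again did not overlap, with control 1 nearest to the PRH-labelled arrays. The difference was 1.17 (SE 0.238), or 2.24-fold. Unscaled, the signals were 74.5 ± 21.6 and 107.9 ± 9.98, and there control 1 (104.5) lay within the range of the PRH-labelled arrays. Both probes are placed by the files on the same transcript accession, NM_199022, and the gap between their differences was 1.28. Over the 8 arrays the 2 probes correlated at r = 0.85, and their deviations from the group means at r = -0.04, both given as descriptions. Whether the probes read the same transcript form was not tested.

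Shc1, the widely expressed family member, went the other way by a smaller amount. Its 1 probe read 2.47, 3.03, 2.78 and 3.06 on the control arrays and 2.17, 2.55, 2.48 and 2.52 on the PRH-labelled arrays. Control 1 lay among the PRH-labelled arrays, and the other 3 control arrays lay above all of them. The difference was -0.40 (SE 0.177), negative in 4 of 4 mouse numbers. Counts by mouse number, here and below, are descriptions, since it is not settled whether the arrays are paired. Unscaled, the signals did not overlap, at 7959 ± 2057 and 3929 ± 639, as the 75th percentile also differed between the groups. The log2 gap between the brighter Shc4 probe and the Shc1 probe on the same array is the same whichever percentile or median an array is centred on, and it was -2.65 ± 0.43 in control and 0.19 ± 0.47 in PRH-labelled tumours, a change of 2.85 with no overlap.

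Shc2 and Shc3, the neuronal family members, were dim. The Shc2 probe A_51_P169714 read between -4.67 and -3.85 on the control arrays and at -4.42, -4.90, -2.78 and -4.41 on the PRH-labelled arrays, so its PRH-labelled mean rested on array 3. Its difference was 0.22 (SE 0.452) and turned to -0.23 without PRH 3. The other Shc2 probe (A_55_P2027077) read between -3.36 and -2.72 and between -2.99 and -2.63, with overlapping groups and a difference of 0.24 (SE 0.178). The sign of both Shc2 differences was negative after median centring, quantile normalization and normexp and in the authors' values, so no direction is given for Shc2. Shc3 was well above background on 3 of 4 arrays of each group, with -4.06, -4.54, -7.68 and -4.59 in control and -3.46, -3.62, -5.97 and -2.96 in PRH-labelled tumours. The tumours numbered 3 were the lowest of both groups, and the difference was 1.22 (SE 0.947), positive in 4 of 4 mouse numbers.

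**Figure D1:**
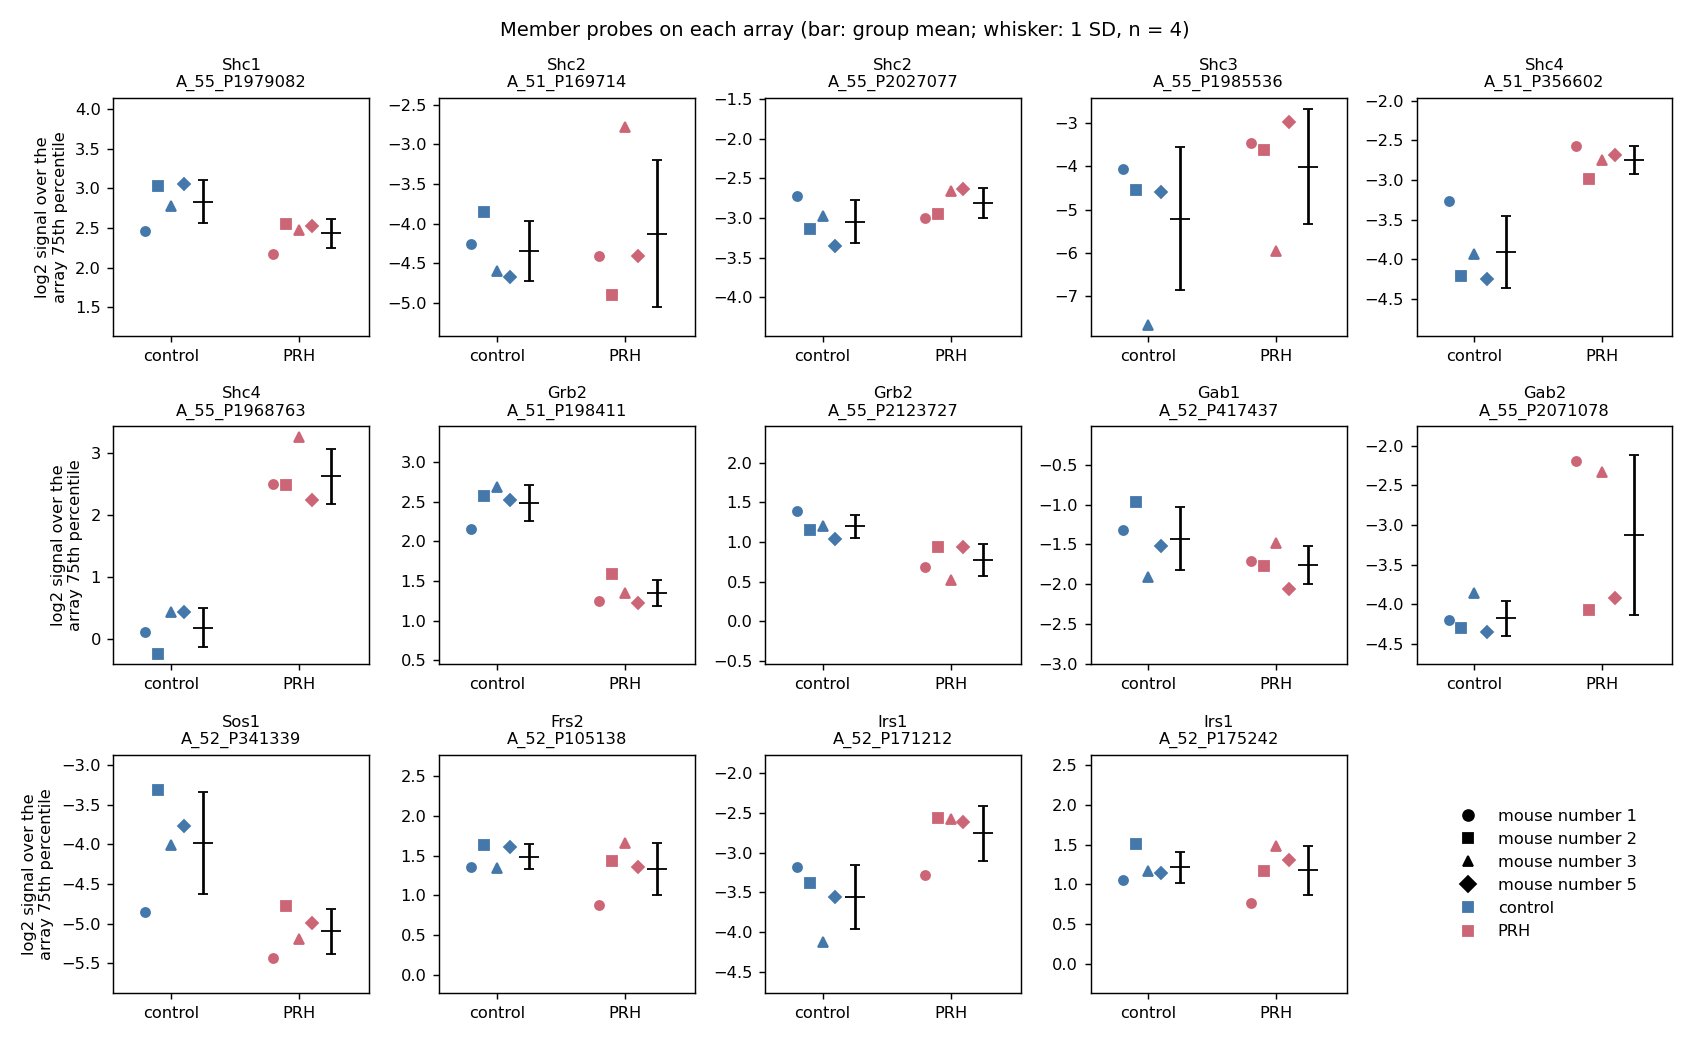
Values of the 14 probes of the 10 genes on each array (log2 signal relative to the array's 75th percentile; one panel a probe, colours for control and PRH-labelled arrays, symbols for the mouse number). The bar is the group mean and the whisker 1 SD (n = 4); the Shc4 panels and both Grb2 panels show no overlap between the groups.

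Grb2, the adaptor that joins phosphorylated Shc to Sos1, was lower in PRH-labelled tumours on both of its probes. The brighter probe (A_51_P198411) read 2.16, 2.57, 2.69 and 2.52 on the control arrays and 1.24, 1.59, 1.35 and 1.22 on the PRH-labelled arrays. Every PRH-labelled array was below every control array, and the spread within each group was small. The difference was -1.13 (SE 0.161), or 2.19-fold lower, and the unscaled signals were 6212 ± 1392 and 1856 ± 297. The other probe (A_55_P2123727), on the same accession NM_008163, read 1.39, 1.15, 1.21 and 1.04 and then 0.69, 0.94, 0.52 and 0.93. Its groups did not overlap either, but its difference was smaller, at -0.43 (SE 0.151).

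The gap between the brighter Grb2 probe and the Shc1 probe, which centring leaves unchanged, went from -0.35 ± 0.20 in control to -1.08 ± 0.17 in PRH-labelled tumours, with no overlap. The other Grb2 probe differed from its controls by about as much as the Shc1 probe did, -0.43 against -0.40.

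Sos1, the Ras exchange factor that Grb2 carries, was dim. Its probe read -4.85, -3.31, -4.00 and -3.77 on the control arrays and -5.43, -4.78, -5.19 and -4.99 on the PRH-labelled arrays. Control 1 lay within the range of the PRH-labelled arrays, and the other control arrays lay above it. The difference was -1.12 (SE 0.326), negative in 4 of 4 mouse numbers, and it ran from -1.40 without control 1 to -0.89 without control 2. Probes as dim as this one were mostly higher in PRH-labelled tumours: when all tested probes were ranked by brightness and split into 10 equal classes, its class had a median difference of 0.70.

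The scaffold genes Gab1 and Gab2 had 1 probe each. Gab1 read -1.32, -0.96, -1.91 and -1.52 on the control arrays and -1.71, -1.77, -1.49 and -2.06 on the PRH-labelled arrays. The groups overlapped, and the difference was -0.33 (SE 0.226), negative in all mouse numbers but 3. Gab2 read between -4.35 and -3.86 on the control arrays and -2.19, -4.07, -2.33 and -3.93 on the PRH-labelled arrays. Arrays 1 and 3 stood well above all control arrays while arrays 2 and 5 lay among them, so the mean difference of 1.05 (SE 0.466) rested mainly on 2 of the 4 tumours. By mouse number the Gab2 difference was positive in 4 of 4.

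The receptor docking proteins moved little on their brighter probes. Frs2 read between 1.35 and 1.64 on the control arrays and 0.89, 1.43, 1.66 and 1.36 on the PRH-labelled arrays, with a difference of -0.16 (SE 0.188). The brighter Irs1 probe (A_52_P175242) read between 1.05 and 1.50 and then 0.76, 1.17, 1.49 and 1.30, with a difference of -0.04 (SE 0.191) whose sign turned in 3 of the 4 other scalings. Groups overlapped for both genes, with PRH 1 the lowest array in each. The dimmer Irs1 probe (A_52_P171212) read -3.18, -3.38, -4.13 and -3.55 in control and -3.28, -2.56, -2.58 and -2.62 in PRH-labelled tumours. There PRH 1 lay among the control arrays and the other 3 above all of them, with a difference of 0.80 (SE 0.257). The 2 Irs1 probes share the accession NM_010570 and differed by 0.84 in their differences.

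In the limma fit across all 39463 tested probes (those that 4 or more arrays read as well above background, adjusted p under 0.05), 10327 or 26.2% were called, which is 16.1% higher and 10.1% lower in PRH-labelled tumours. All 14 probes of the 10 genes were tested, and 4 of them (28.57%) were called, a share close to that background. They were both Shc4 probes (higher), the brighter Grb2 probe and Sos1 (lower), and since the contrast led to the choice of these genes nothing is read from the count. When mouse number was added as a block, 5 of the 14 and 34.4% of all probes were called, Shc3 (higher) being the added one. After median centring 7 of the 14 were called, 2 higher and 5 lower, where 32.9% of all probes were called, 7.9% higher and 25% lower. With normexp 2 were called, and in the authors' values 2, each beside 25% of all probes. Both times these were the brighter Shc4 and Grb2 probes, while the dimmer Shc4 probe and Sos1 did not pass. Sos1 also passed in only 1 of the 8 fits without 1 array. Groups did not overlap in 2 probes higher and 2 lower, against 18.8% and 12.7% of all probes. The median difference of the 14 probes was 0.09, with 7 above and 7 below 0, and that of all tested probes was 0.22.

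The size of the differences in these genes depended on the scaling, and for both Shc2 probes and the brighter Irs1 probe so did the sign. The median difference of all tested probes was 0.22 in the main scaling, on the 75th percentile, and -0.25 with arrays centred on their median. It was 0.01 with quantile normalization, 0.02 with normexp background correction and 0.02 in the values the authors deposited. The brighter Shc4 probe was higher by 1.98, 2.48, 2.42 and 2.47 in the 4 other scalings, in that order, and the brighter Grb2 probe stood at -1.60, -1.05, -1.02 and -1.03. The dimmer Shc4 probe stood at 0.70, 0.68, 0.35 and 0.43, and Sos1 at -1.58, -1.70, -0.49 and -0.71. The other Grb2 probe stood at -0.89, -0.37, -0.20 and -0.21. The dimmer Irs1 probe stood at 0.34, 0.33, 0.20 and 0.23, and Gab2 at 0.58, 0.55, 0.40 and 0.49, all below their main values of 0.80 and 1.05. The dimmer Shc4 probe, Sos1, the other Grb2 probe, the dimmer Irs1 probe and Gab2 thus kept their sign, while the size ranged widely.

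**Figure D2:**
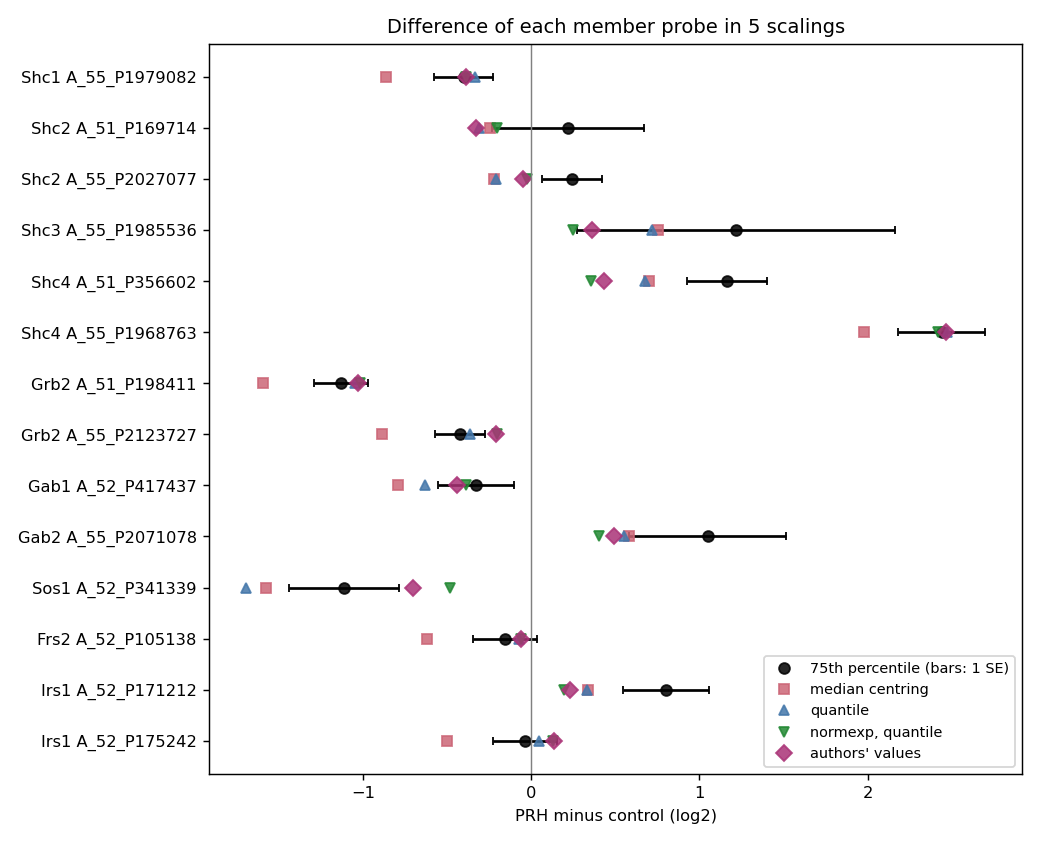
PRH-labelled minus control difference (log2) of each of the 14 probes after 75th percentile scaling (black, bar of 1 SE) and in 4 other scalings. The brighter Shc4 probe lies between 1.98 and 2.48 and the brighter Grb2 probe between -1.60 and -1.02 in all of them, while both Shc2 probes fall on either side of 0.

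Brightness moved with the differences over the whole array. The median difference of all tested probes was 0.87 in class 1, the dimmest of the 10 brightness classes, 0.55 in class 4, -0.16 in class 8 and 0.06 in class 10. Relative to the median of its own class the brighter Shc4 probe stood at 2.60 and the dimmer one at 0.62, the brighter Grb2 probe at -1.001 and Sos1 at -1.81. The Shc2 probes stood at -0.48 and -0.31, Shc3 at 0.52, the dimmer Irs1 probe at 0.25 and Gab2 at 0.44. The part of brightness in the members' differences was not tested.

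**Figure D3:**
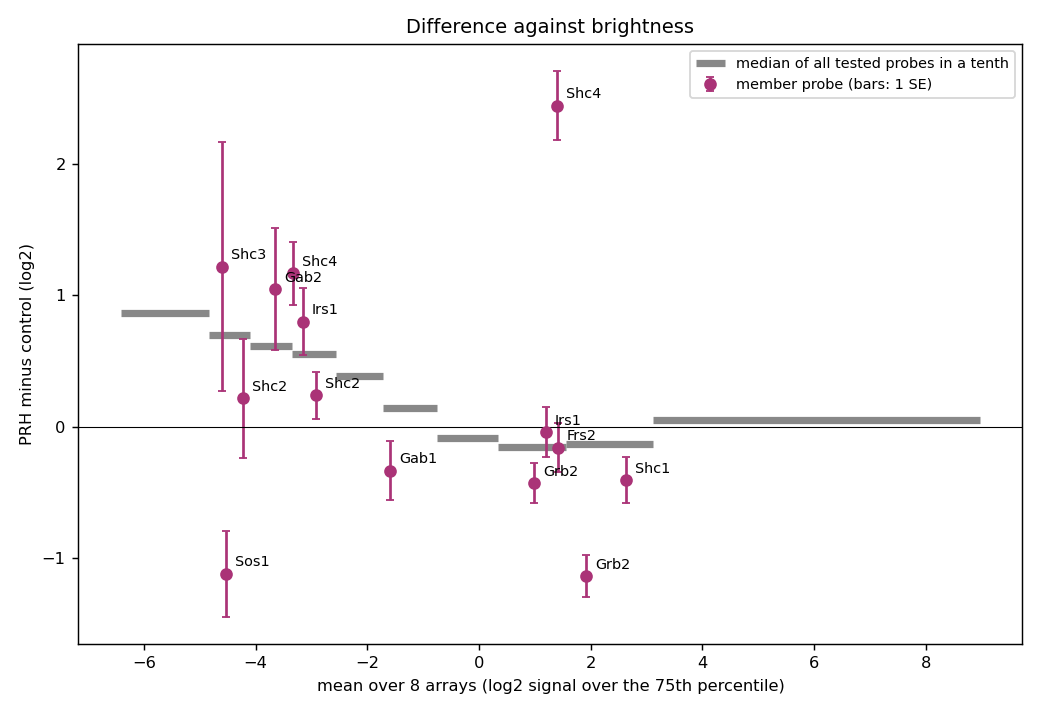
Difference between the groups (log2, bar of 1 SE) against mean brightness for the 14 probes, with grey segments for the median of all tested probes in each of 10 brightness classes. The grey segments fall from 0.87 in class 1 to -0.16 in class 8; the brighter Shc4 probe lies far above and the brighter Grb2 probe and Sos1 far below the segment of their class.

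Among 16376 other named genes, those whose brightest probe followed the brighter Shc4 probe most closely over the 8 arrays were Cabp5 (Pearson r = 0.998), Lzts3 (r = 0.997) and St6galnac1 (r = 0.996), with differences of 2.45, 2.40 and 2.44. For Shc1 they were Tmem259 (r = 0.993), Dgkq (r = 0.992) and Mex3b (r = 0.991), with differences of -0.50, -0.64 and -0.44. These correlations are a description over 8 arrays that share the split into groups, and 702 genes correlated above 0.9 with Shc4 and 665 with Shc1.

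Other genes of the same pathway were read from the same fit, in 6 lists by role that hold 95 genes, all with a probe. Of 118 tested probes of 87 genes, 8 were higher and 24 lower (median difference -0.12). Over the 21297 tested probes with a gene symbol, 9.89% were called higher and 14.4% lower, and their median difference was -0.05. These shares are per probe. No share of genes with at least 1 called probe was computed for the gene counts below. Of the calls 3 higher and 22 lower ones held in all 5 scalings. Relative to the main scaling, median centring lowers every probe's difference equally, so lower calls hold more readily than higher ones. The share of all probes whose calls held in all 5 scalings was not computed, so nothing is read from this split. After median centring the split was 4 higher and 42 lower, where 3.82% of the tested probes with a gene symbol were called higher and 35.2% lower. The total of 32 called fell to 20 without control 2 and to 21 without PRH 5.

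Among other docking proteins 3 genes were higher and 1 lower, of 15 tested with 16 probes. Irs4 and Irs3, relatives of Irs1, rose by 1.52 (SE 0.206, limma adjusted p = 0.00674) and 1.37 (SE 0.218, adjusted p = 0.00723), each higher in all PRH-labelled arrays than in any control array and in all 5 scalings. Another Irs4 probe, left untested by the filter on dim probes, was well above background on 0 control and 0 PRH-labelled arrays. Its unscaled signals averaged 5.7 and 3.3, against 477.5 and 895.9 for the called probe. Irs2, the other relative, stood higher by 0.62 (SE 0.151, adjusted p = 0.0217). It did not pass after median centring, nor in 5 of the 8 fits without 1 array (without control 2, control 5, PRH 1, PRH 3 or PRH 5, adjusted p up to 0.0641). Lat2, a docking protein of B cells and myeloid cells, fell by 1.15 (SE 0.234, adjusted p = 0.0121).

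Among other SH2 and SH3 adaptors, the family of proteins to which Grb2 belongs, 4 of 15 genes were lower and 0 higher, all 4 in all 5 scalings. By probe, 4 of 19 tested were lower. Crkl and Nck1, which link receptors to the cytoskeleton and small GTPases, both fell by 0.74 (SE 0.146 and 0.158, limma adjusted p = 0.0112 and 0.014). Sla, an adaptor of lymphocyte receptors, fell by 0.98 (SE 0.193, adjusted p = 0.0112). Sh3bp2, an adaptor of haematopoietic cells and osteoclasts, fell by 0.67 (SE 0.159, adjusted p = 0.0198), a call lost in 3 of the 8 fits without 1 array (without control 2, PRH 1 or PRH 5, adjusted p up to 0.0568).

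Enzymes that adaptors recruit were lower in 5 genes, higher in 1 and called in both directions in 1, of 17. By probe, 6 of 20 tested were lower and 2 higher. Cbl, the ubiquitin ligase that Grb2 brings to receptors, fell by 1.64 (SE 0.151, limma adjusted p = 0.00674). Pik3ca and Pik3r1, a catalytic and a regulatory subunit of PI3 kinase, fell by 1.41 (SE 0.210, adjusted p = 0.00682) and 0.77 (SE 0.138, adjusted p = 0.00879). The other PI3 kinase subunits in the list, Pik3cb, Pik3r2 and Pik3r3, did not pass and stood at -0.47, 0.12 and 0.28. Inpp5d, a lipid phosphatase of blood cells that binds Shc1, fell by 1.10 (SE 0.189, adjusted p = 0.00815). The 2 probes of Cblb, a relative of Cbl, passed in opposite directions, at 1.22 (SE 0.228, adjusted p = 0.00976) and -0.62 (SE 0.154, adjusted p = 0.0227), and the lower one was lost without control 2, control 5, PRH 1, PRH 3 or PRH 5 (adjusted p up to 0.0631). Nf1, a Ras GTPase-activating protein, was higher by 0.93 (SE 0.247, adjusted p = 0.0287), did not pass after median centring (adjusted p = 0.158), and kept its call without control 1 and without PRH 3 but in none of the other 6 such fits (adjusted p up to 0.0763). The fifth enzyme called lower was Sos2, a relative of Sos1, at -0.73 (SE 0.199, adjusted p = 0.0312), which of the 8 fits without 1 array passed only in that without control 1 (adjusted p up to 0.0805) and which lies outside the rule for named genes.

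In the chain from Ras to the MAP kinases 6 of 14 genes had a probe called lower and 0 a probe called higher. By probe, 6 of 27 tested were called lower. Araf, a kinase of this chain that Ras activates, was lower by -0.69 (SE 0.182, limma adjusted p = 0.0289). Among the 8 fits without 1 array it passed only in that without control 1 (adjusted p up to 0.0798), it did not pass with normexp or in the authors' values, and its other probes stood at 0.16 and -0.21. Nras, a Ras gene (-0.53, limma adjusted p = 0.048), and Rps6ka3, a kinase downstream of the MAP kinases (-0.62, adjusted p = 0.0345), lie outside the rule for named genes, and each had at least 1 other probe that did not pass. Without single arrays Nras passed only without control 1 (adjusted p up to 0.114), and Rps6ka3 was lost without control 2, control 3, control 5, PRH 1, PRH 2 or PRH 5 (adjusted p up to 0.0917).

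Of 8 tested feedback inhibitors 3 were lower and 0 higher, and the 3 were the Spred genes, whose products hold back Ras activation. Spred3 fell by 0.97 (SE 0.214, limma adjusted p = 0.016), Spred1 by 0.73 (SE 0.146, adjusted p = 0.0117) and Spred2 by 0.64 (SE 0.166, adjusted p = 0.0274), all in all 5 scalings. Spred2 was lost in 5 of the 8 fits without 1 array (without control 2, control 5, PRH 1, PRH 3 or PRH 5, adjusted p up to 0.0762).

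Receptors that use these adaptors were called in both directions, 3 genes higher and 4 lower of 18 tested. By probe, 3 of 28 tested were higher and 4 lower. Erbb4 rose by 1.51 (SE 0.288, limma adjusted p = 0.0103). It was well above background on 1 control array of 4 and on 4 PRH-labelled arrays, the group with more detection over the whole array. The Erbb4 call failed with normexp and in the authors' values. Fgfr3 and Fgfr4 were higher by 0.86 (SE 0.158, adjusted p = 0.00926) and 0.75 (SE 0.171, adjusted p = 0.0171) and did not pass after median centring, and the other tested Fgfr3 probe stood at -0.60. The other Fgfr4 probe, left untested by the filter on dim probes, stood at -1.63, lower in 4 of 4 mouse numbers, and was well above background on 2 control and 0 PRH-labelled arrays. Fgfr2 fell by 1.16 (SE 0.197, adjusted p = 0.0079), with its other probe at 0.21. Insr, the insulin receptor gene, fell by 1.05 (SE 0.196, adjusted p = 0.00972), while its other probes stood at -0.36 and 0.24. Pdgfra and Pdgfrb, the PDGF receptor genes of fibroblasts and pericytes, fell by 0.73 (SE 0.146, adjusted p = 0.0115) and 0.66 (SE 0.188, adjusted p = 0.0376). Pdgfrb passed in 1 of the 8 fits without 1 array, that without control 1 (adjusted p up to 0.0964).

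**Figure D4:**
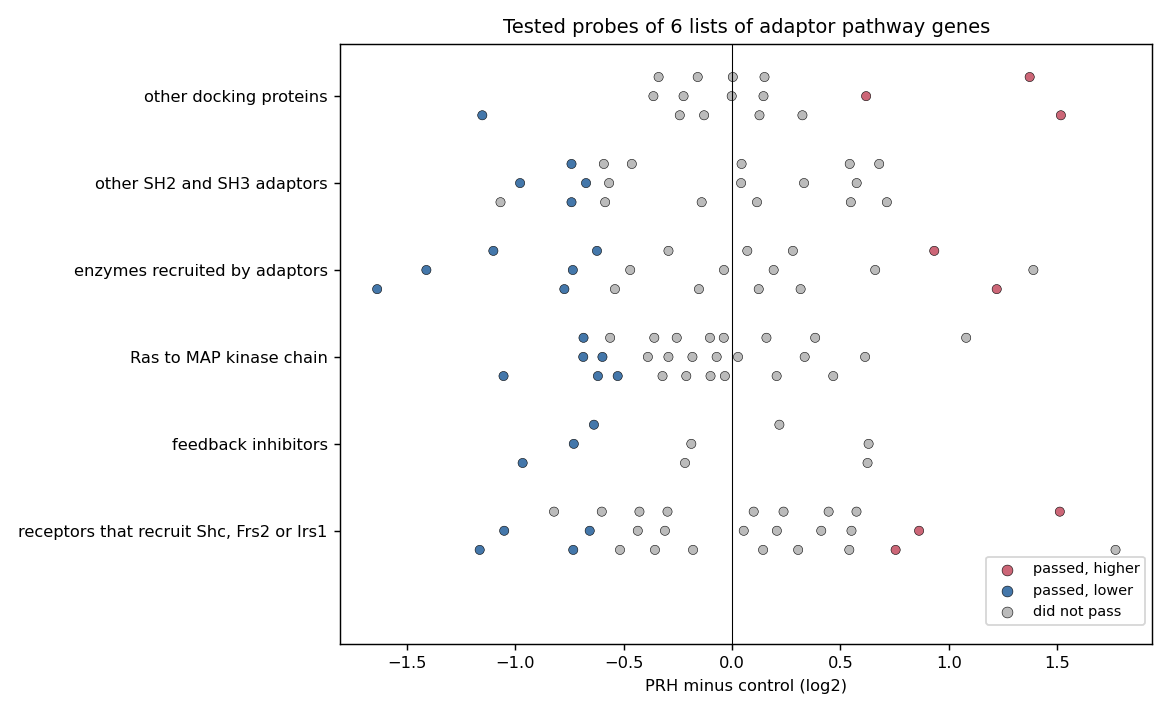
PRH-labelled minus control difference (log2) of the 118 tested probes in 6 lists of adaptor pathway genes, 1 point a probe, coloured by whether it passed the limma threshold and in which direction. Passed probes of the adaptor, Ras to MAP kinase and feedback lists all lie below 0, while those of the docking protein, enzyme and receptor lists lie on both sides; height within a list only separates the points.

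Fewer cells of a type and less RNA per cell cannot be told apart in such samples. All 8 epithelial and all 10 endothelial markers were well above background on all 8 arrays, so neither reading of the RNA source lacks its markers. The epithelial markers summed to 291.7 to 366.3 in control and 382.9 to 468.8 in PRH-labelled tumours (signal in units of the array's 75th percentile), with no overlap and a median difference of 0.48 that was 0.02 after median centring. Of the 8, Krt18 was called higher (0.52, limma adjusted p = 0.026), a call lost in the other 4 scalings. The endothelial markers summed to 17.4 to 45.9 and 42.3 to 48.96, with a median difference of 0.09 that turned to -0.37 after median centring. Of the 10, Kdr was called higher (1.17, limma adjusted p = 0.0243), a call lost after median centring. Of the cell types in which Shc4 is known, melanocytes had 3 of 6 markers above background on all arrays, with Tyrp1 on none, and summed levels of 1.40 to 2.31 in control and 1.65 to 2.61 in PRH-labelled tumours. Schwann cell and neuron markers summed to 9.88 to 23.8 and to 23.4 to 28.6, with 1 of 7 tested called, Syp, a call lost after median centring. Skeletal muscle markers summed to 1.98 to 13.7 and to 3.13 to 6.29, with 1 of 6 called, Mylpf, a call held in all 5 scalings. Musk, the muscle receptor, was well above background on 0 control and 3 PRH-labelled arrays, and its difference was not tested. Its unscaled signals averaged 15.2 ± 3.74 in control and 15.5 ± 8.05 in PRH-labelled tumours, whose arrays had more detection throughout. The median differences of the melanocyte, Schwann cell and neuron, and muscle lists were 0.59, 0.73 and 0.66, and positive in all 5 scalings. At their lowest they were 0.06 (normexp), 0.12 (the authors' values) and 0.11 (normexp). Leucocyte markers, beside which the falls of Lat2, Sla and Inpp5d stand, summed to 24.97 to 50.9 and 36.8 to 52.3, with 0 of 5 called. Of the fibroblast and pericyte markers 2 of 6 were called lower, and these are Pdgfra and Pdgfrb themselves. The list's median difference was -0.63 and was negative in all 5 scalings, with Dcn at -0.60 and Rgs5 at -0.79, which did not pass, and Col1a1 and Col1a2 at 0.07 and 0.21. Its sums, 209.1 to 270.0 in control and 221.8 to 272.0 in PRH-labelled tumours, include these collagen genes. Adipocyte markers summed to 3.26 to 94.1 and 8.03 to 12, with 0 of 4 called. The part of these cell types in the differences of the adaptor genes was not tested.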

How the data were processed

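Total RNA (50 ng) from each of the 8 samples was labelled with Cy3 and read on 1-colour Agilent mouse arrays. Per the file headers, the deposited intensities came from Agilent Feature Extraction 10.7.3.1 on a design placed on mm9, while the submitters' processing notes name version 9.1. That software had already corrected the processed signal for background. A table of the authors' normalized intensities was also deposited. It is linear, its column medians were 123.8 to 125.9, it correlated by rank with each array's own scanner signals at 0.989 to 0.995, and its background correction and offset are not given in the sources used here.

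Spots of a probe were averaged as log2 signal, outlier spots being left out where others remained, and each array's 75th percentile over non-control spots was subtracted. Probes were named through RefSeq accessions and a RefSeq table of GRCm38.p6, used for names alone; 26582 probes matched. Probes well above background on at least 4 arrays were tested by lmFit and eBayes of limma 3.58.1 under R 4.3.3 (group alone, two-sided, Benjamini-Hochberg over all 39463 tested probes, threshold 0.05), after the code was tested on simulated data. Array measures were compared with an exact permutation test (scipy 1.17.1).

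Alternatives were median centring, quantile normalization, normexp (offset 50) followed by quantile normalization, the authors' values, no filter, a filter on all 8 arrays, the brightest probe of a gene, outlier spots kept, the mouse number as a block, and leaving out each array. The files hold no mean spot signal, so normexp used the median signal, a choice made after seeing the files. Deviations from the group means of same-numbered arrays correlated at 0.20, 0.422, 0.651 and 0.257 for mouse numbers 1, 2, 3 and 5. No correlations of unlike-numbered arrays are given beside them, and a number is also a slide row. They therefore do not settle whether the arrays are paired. The main fit, with its SEs and p-values, leaves the numbers out, and only the block alternative takes them in. The 10 genes, the pathway and marker lists and the alternatives were chosen with earlier results of these data known. Named pathway genes are, for each list and direction, up to 4 called genes with the smallest p; some of them are not reported here. Probe and protein sequences were not used here.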

Additional observations from a re-analysis of the deposited data

Results flagged for a closer look

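In 4 of the 84 groups of 4 arrays examined for the named probes, 1 array stood apart from the other 3, and chance flags about 1 group in 20 in this way. The Shc3 probe read -7.68 on control 3, against -4.59 to -4.06 on the other control arrays. The dimmer Irs1 probe read -3.28 on PRH 1, against -2.62 to -2.56 on the other PRH-labelled arrays. The Cbl probe read -2.96 on PRH 5, against -2.70 to -2.67, and the Pdgfrb probe read 0.784 on PRH 1, against 1.18 to 1.26.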

How the results depend on the processing

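The number of the 14 probes called, 4 by the main setting, was 7 after median centring, 2 with normexp and 2 in the authors' values, and 3 to 6 without single arrays. Of the pathway probes 32 were called, with 20 to 41 without single arrays, and of all probes 10327, with 6591 to 13355 without single arrays. The lowest of these were without control 2 (20) and without control 5 (6591), and the highest both without control 1; all probes gave 6707 without control 2, 6665 without PRH 1 and 6865 without PRH 5. The split of all calls into higher and lower was 6354 to 3973 by the main setting, 3118 to 9859 with arrays centred on the median, 4468 to 6224 with quantiles equalised, 4051 to 5824 under normexp and 3989 to 5886 in the deposited table. With the mouse number as a replicate block 5 of the 14 probes, 36 pathway probes and 13560 of all probes were called; among the genes named in the text it changed the call of Shc3 and no other. Hhex kept its direction and its call in all 17 alternatives. Of the 28 pathway probes that the rule for named genes chose, 17 kept their call in all alternatives that tested them, and none changed sign. Where counts moved, the cause was not tested. Dim probes, such as those of Shc2, Shc3 and Sos1, lie near the background, which limits their precision.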
